A study of Mus musculus with 6 samples.

Results

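The genes described here were the nuclear genes whose symbols name subunits of mitochondrial complex I. They were the rows of the count table whose name began with Ndufa, Ndufb, Ndufc, Ndufs, Ndufv or Ndufab followed by a number, without the assembly factors (Ndufaf genes) and without pseudogenes. This gave 38 genes of 45706 in the table. Of these, 37 passed the filter on low counts together with 11440 genes in all. Ndufa4l2, a relative of Ndufa4, did not pass, with estimated counts of 1, 0 and 0 in the control samples and 0, 0 and 7 in the knockdown samples, and is not considered further. Ndufb1 was not analysed here. The rule uses the symbols alone and no measured value.

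Complex I (NADH:ubiquinone oxidoreductase) is the largest enzyme of the respiratory chain. It takes electrons from NADH, passes them through flavin and a chain of iron-sulfur clusters to ubiquinone, and couples this to the pumping of protons across the inner mitochondrial membrane. Its L shape has a peripheral arm in the matrix, which holds the nuclear-encoded core subunits that carry the redox centres, and a membrane arm, which holds the core subunits encoded by the mitochondrial genome. Accessory subunits surround both arms and are needed for assembly and stability. Fat cell differentiation is known to be accompanied by an increase in mitochondrial mass.

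RNA was sequenced from 3T3-L1 cells, a mouse embryonic fibroblast line that becomes fat-storing adipocytes, on day 7 of differentiation in an adipogenic cocktail of IBMX, insulin, dexamethasone and roziglitazone (spelled as in the labels). There were 3 scrambled control samples (genotype label WT) and 3 RBMS1 knockdown samples (genotype label RBMS1KD), and all 6 received the cocktail. RBMS1 is an RNA-binding protein. Both lines carried a lentiviral short hairpin RNA and were stably selected with puromycin, and the sources used here do not say whether the replicates of a group came from separately selected cells, so the p-values measure the spread between these samples. The comparison asks how the level of each complex I mRNA differed in adipocytes with reduced Rbms1.

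Sample totals ran from 3142699 to 11073111 estimated counts, and complex I genes made up between 0.197% and 0.296% of them. Control replicate 2 stood apart, since 43.0% of its counts fell on genes derived from ribosomal RNA against 8.12% to 17.8% in the other samples, and it had the lowest total. The Rbms1 level was 113, 102 and 99.6 CPM (counts scaled to a common library size with TMM factors) in the controls and 49.2, 61.4 and 84.0 CPM in the knockdown samples, a log2 fold change of −0.69 (SE 0.20, adjusted p = 0.185, Benjamini-Hochberg, in the edgeR quasi-likelihood test). Every knockdown sample was below every control, and replicate 3 was the nearest to them. Adipocyte markers were abundant in every sample, Adipoq for example between 1056 and 2649 CPM, except Lep, which had 1 to 22 counts and was not tested.

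Most complex I mRNAs had lower values in the knockdown samples relative to all tested genes, although few passed the test alone. Of the 37 tested members, 32 (86.5%) had a log2 fold change (knockdown over control) below 0, against 49.6% of all tested genes, but only 17 did when the samples were scaled by library size alone, a scaling that set the median of all tested genes at 0.37. The members' median log2 fold change was −0.38 (quartiles −0.51 and −0.17), beside 0.0044 over all tested genes. It was −0.24, with 29 members below 0, when each sample's trend in GC content and mRNA length was removed. With library sizes alone the members' median was 0.025, which lay 0.35 below that of all tested genes. In 16 members all knockdown samples were below all controls and in 0 above, while 9.55% of all tested genes had such separated groups in the lower direction. An unadjusted p under 0.05 with a lower level was seen in 16 of 37 members and in 6.98% of all tested genes. In bulk samples, fewer cells of a type and less RNA per cell cannot be told apart.

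**Figure D1:**
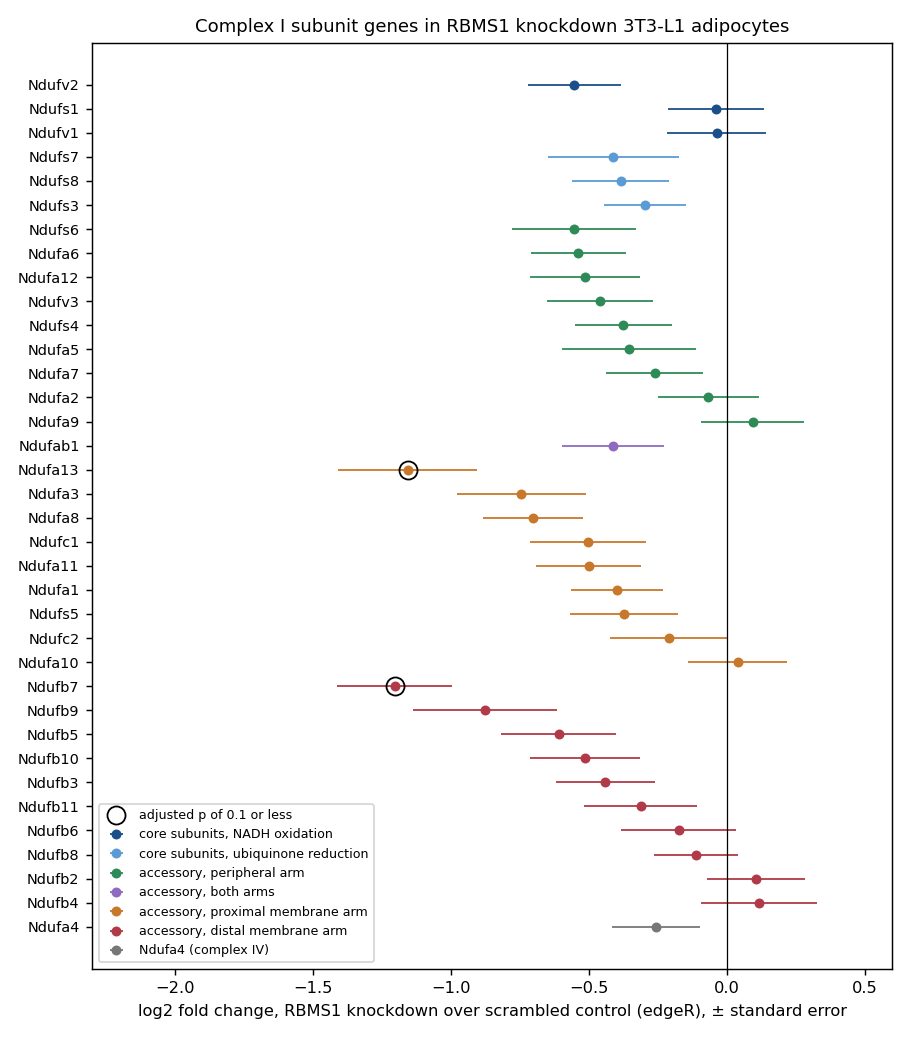
Log2 fold change of the complex I genes whose values are reported, RBMS1 knockdown over scrambled control (x axis), with its standard error from edgeR, grouped by place in the enzyme (colours). The open circles mark Ndufb7 (−1.20) and Ndufa13 (−1.16), the members at an adjusted p of 0.1 or less, and the points right of 0 are Ndufa9, Ndufa10, Ndufb2 and Ndufb4 (with library sizes alone only 17 of all 37 members were below 0).

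Only 2 members fell at an adjusted p of 0.1 or less, and none rose (edgeR's quasi-likelihood test, Benjamini-Hochberg adjustment over all tested genes). The same threshold called 1.22% of all tested genes in either direction and 0.909% in the lower direction. Ndufb7, a cysteine-rich subunit on the intermembrane face of the distal membrane arm, was at 27.6, 37.2 and 25.8 CPM in the controls and at 13.2, 11.6 and 14.2 CPM in the knockdown samples. The groups did not overlap, and the highest knockdown value was well under the lowest control. Its fitted level was 56.6% lower, with a log2 fold change of −1.20 (SE 0.21, adjusted p = 0.0499 in edgeR's quasi-likelihood test). Ndufa13, also called GRIM-19, a membrane-spanning subunit at the joint of both arms that has also been described in cell death signalling, was at 52.7, 105 and 70.9 CPM in the controls and at 31.5, 29.6 and 40.8 CPM in the knockdown samples. Its groups did not overlap either, and control replicate 2 was the highest sample. Its fitted level was 55.2% lower, with a log2 fold change of −1.16 (SE 0.25, adjusted p = 0.0967 in edgeR's quasi-likelihood test).

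Neither call was independent of the sample set. Leaving out any control replicate, or knockdown replicate 2, left 0 members called, leaving out knockdown replicate 3 left 2, and leaving out knockdown replicate 1 gave 9, namely Ndufa13, Ndufa3, Ndufa6, Ndufa8, Ndufab1, Ndufb5, Ndufb7, Ndufv2 and Ndufv3. The number of calls over all tested genes moved in the same way, from 140 to between 12 and 38 in the fits with 0 members called, to 116 without knockdown replicate 3 and to 696 without knockdown replicate 1. Over these fits the log2 fold change of Ndufb7 stayed between −1.31 and −1.04 and that of Ndufa13 between −1.36 and −0.86. DESeq2 called 4 members, Ndufa13, Ndufa8, Ndufb7 and Ndufb9, at a threshold that called 3.2% of the 13454 genes it gave an adjusted p. Ndufb7 alone was called with limma-voom, RLE size factors, the GC and length trend removed or edgeR's earlier estimate. These fits called 116, 132, 136 and 122 of all tested genes. In them the adjusted p of Ndufa13 was 0.123 in limma-voom and 0.105, 0.133 and 0.105 in edgeR.

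Ndufb7 and Ndufa13 were also the only members on chromosome 8, and that chromosome was lower as a whole relative to all tested genes. The gene Ndufb7 lies at chr8:83566671-83571626 on the plus strand and Ndufa13 at chr8:69894180-69902558 on the minus strand (GRCm38). Over the other 622 tested genes there the log2 fold change had its median at −0.38, 90.0% of these genes were below 0, and 23 were called, all lower. Ndufb5, a membrane subunit of the distal arm, lies in the first 50 Mb of chromosome 3, where the median over 91 tested genes was −0.64, and had a log2 fold change of −0.61, which was 0.0048 with chromosome medians removed. With each sample's chromosome medians removed, Ndufb7 had a log2 fold change of −0.81 (adjusted p = 0.171) and Ndufa13 one of −0.76 (adjusted p = 0.305), both from edgeR, and 0 members were called. Outside these regions 29 of 34 members were below 0 with a median of −0.37, and 0 of the 34 were called in edgeR, with 13 at an unadjusted p under 0.05 (DESeq2 called Ndufa8 and Ndufb9). The 50 Mb boundary was a set value. Ndufc1 (log2 fold change −0.50), which starts just past it at chr3:51404677, is counted among the 34 and the 13. A chromosome-wide difference and a difference of the gene itself cannot be told apart for Ndufb7 and Ndufa13 in these samples.

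The promoter windows of both called members, and of Ndufb4, the member with the highest log2 fold change, are printed so that they can be compared. Each holds 250 bases before and 50 after a start site in RefSeq, build GRCm38.p6, written 5′ to 3′ on the strand of the gene in lower case, with matches to the motifs searched in capitals.
Ndufb7, chr8:83566508-83566807, plus strand: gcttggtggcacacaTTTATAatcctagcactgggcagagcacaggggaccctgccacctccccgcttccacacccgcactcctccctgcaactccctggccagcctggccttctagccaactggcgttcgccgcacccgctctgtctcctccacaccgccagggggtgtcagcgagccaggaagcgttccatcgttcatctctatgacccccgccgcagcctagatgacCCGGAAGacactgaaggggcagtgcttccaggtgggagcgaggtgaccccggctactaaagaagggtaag
Ndufa13, chr8:69901971-69902270, minus strand: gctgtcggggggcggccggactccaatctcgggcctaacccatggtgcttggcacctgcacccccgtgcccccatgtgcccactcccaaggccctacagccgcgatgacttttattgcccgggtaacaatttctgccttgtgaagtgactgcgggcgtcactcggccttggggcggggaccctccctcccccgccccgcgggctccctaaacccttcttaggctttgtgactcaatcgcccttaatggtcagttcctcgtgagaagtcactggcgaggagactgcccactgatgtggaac
Ndufb4, chr16:37654319-37654618, minus strand: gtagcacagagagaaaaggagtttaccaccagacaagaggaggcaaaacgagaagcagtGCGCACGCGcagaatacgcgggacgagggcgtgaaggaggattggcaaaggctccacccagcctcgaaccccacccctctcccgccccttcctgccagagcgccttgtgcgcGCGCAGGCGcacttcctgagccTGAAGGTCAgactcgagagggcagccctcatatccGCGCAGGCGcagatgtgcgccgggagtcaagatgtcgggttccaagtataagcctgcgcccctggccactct
The capitals mark TTTATA, the reverse complement of TATAAA, and CCGGAAG in Ndufb7, and 3 matches to GCGCANGCG and 1 to TNAAGGTCA in Ndufb4. The window of Ndufa13 had no match to any of the letters searched. This window lies wholly inside the annotated span of the gene (chr8:69894180-69902558, minus strand), so the upstream end of that span was not searched.

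Promoter windows were found for 33 of the 38 members. Ndufa2, Ndufb9, Ndufs1 and Ndufa4l2 were among those without one. Letters bound by factors known for respiratory genes were searched on both strands, namely GCGCANGCG for NRF1, CCGGAAG for ETS factors such as GABP, AAGATGGCG for YY1 and TNAAGGTCA for ERR receptors, together with TATAAA. None of these motifs holds another within it. NRF1 letters stood in 8 members (24.2%) and in 16.8% of the 8413 tested genes with a window. YY1 letters stood in 5 (15.2%) against 3.99%, and ETS letters in 4 (12.1%) against 21.6%. TATAAA was found in 4 members (12.1%) against 8.20% of tested genes, and the ERR letters in Ndufb4 alone (3.03%) against 0.820%. Over all genes of the promoter table the shares were 7.03% for NRF1, 9.93% for ETS, 1.64% for YY1, 1.43% for ERR and 15.7% for TATAAA. The median log2 fold change was −0.51 in the 8 members with NRF1 letters and −0.38 in the 25 without, and was −0.41 in the 5 with YY1 letters and −0.39 in the 28 without. For ETS letters it was −0.34 in the 4 with and −0.41 in the 29 without, and for TATAAA −0.58 in the 4 with and −0.38 in the 29 without. These matches describe letters in a window, not binding.

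Among the core subunits, which carry out the redox chemistry, Ndufv1 and Ndufs1 stood at about the control level and Ndufv2 was lowest. Of the core subunits 0 were called in edgeR, DESeq2 or limma-voom, and Ndufv2 alone had an unadjusted p under 0.05 in edgeR. Ndufv1, which binds the flavin and NADH, was at 143, 149 and 133 CPM in the controls and at 166, 107 and 142 CPM in the knockdown samples. Ndufs1, the largest subunit of the peripheral arm and a carrier of several iron-sulfur clusters, was at 160.3, 186 and 189.8 CPM in the controls and at 214, 149 and 158 CPM in the knockdown samples. In both genes the groups overlapped, with knockdown replicate 1 as the highest of the 6 samples and replicate 2 as the lowest. Their log2 fold changes were −0.037 for Ndufv1 and −0.040 for Ndufs1, each with an SE of 0.18. Ndufv2, which holds an iron-sulfur cluster next to the flavin, was the core member with the lowest log2 fold change, at 126, 142 and 118 CPM in the controls against 106, 79.0 and 78.1 CPM in the knockdown samples. Its groups did not overlap, and its log2 fold change of −0.55 (SE 0.17) did not pass the threshold (adjusted p = 0.204 in edgeR's quasi-likelihood test). Without knockdown replicate 1 it was called, at −0.70 (adjusted p = 0.0425 in edgeR), in a fit that called 696 of all tested genes.

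On the path to ubiquinone, Ndufs7, Ndufs8 and Ndufs3 were between these values. Ndufs7, the carrier of the last iron-sulfur cluster, was at 43.4, 66.5 and 40.3 CPM in the controls and at 46.9, 30.0 and 35.5 CPM in the knockdown samples, a log2 fold change of −0.41 (SE 0.24). The groups overlapped, control replicate 2 was the highest sample, and the log2 fold change was −0.16 without it, −0.26 without knockdown replicate 2 and −0.23 with the GC and length trend removed. Ndufs8, a subunit with iron-sulfur clusters, was at 39.6, 48.6 and 36.0 CPM in the controls against 33.1, 28.2 and 33.5 CPM (log2 fold change −0.38, SE 0.18). Ndufs3, a core subunit without a redox centre, was at 99.1, 85.9 and 93.3 CPM in the controls against 83.7, 67.3 and 75.5 CPM (log2 fold change −0.30, SE 0.15). In these last members all knockdown samples lay under the lowest control, the highest of them by little, and neither passed the threshold, with adjusted p of 0.414 for Ndufs8 and 0.459 for Ndufs3 in edgeR. Ndufs3 was at −0.19 with the GC and length trend removed.

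**Figure D2:**
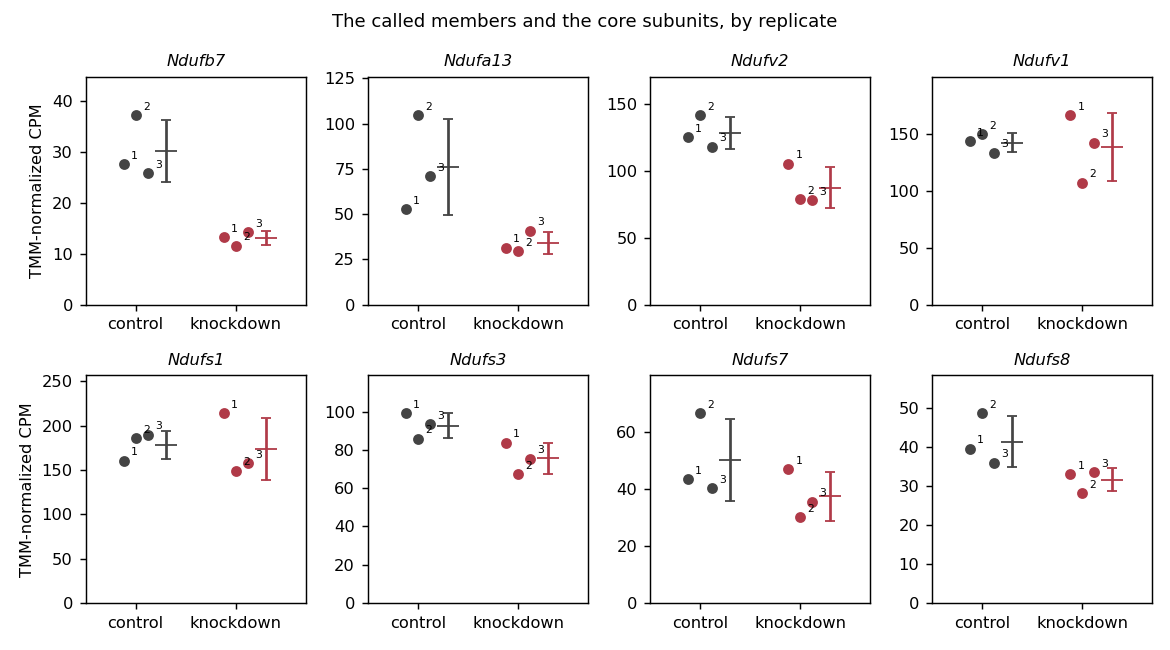
TMM-normalized CPM (y axis, from 0) of the called members Ndufb7 and Ndufa13 and of the core subunits Ndufv2, Ndufv1, Ndufs1, Ndufs3, Ndufs7 and Ndufs8, with 1 numbered point per replicate and the mean ± SD of each group (n = 3) beside it. The groups are apart in Ndufb7, Ndufa13, Ndufv2, Ndufs3 and Ndufs8 and overlap in Ndufv1, Ndufs1 and Ndufs7.

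For the accessory subunits the log2 fold change had its median at −0.41, and 25 of 29 were below 0. Scaled by library size alone, 16 of 29 were below 0, with a median of −0.035 beside 0.37 over all tested genes. Under TMM scaling the groups were separated in 13 of the 29, beside 9.55% of all tested genes in the lower direction. In the peripheral arm 8 of 9 were below 0 (5 with library sizes alone), with a median of −0.37. Of these 0 were called in edgeR, DESeq2 or limma-voom, with 4 at an unadjusted p under 0.05 in edgeR. The lowest there were Ndufs6, a zinc-binding subunit (−0.55), Ndufa6, a partner of the acyl carrier protein (−0.54), and Ndufa12 (−0.51), which takes the place that the assembly factor Ndufaf2 holds before the arm is complete. Ndufv3, attached to the flavin end, had −0.46, Ndufs4, whose loss causes Leigh syndrome, −0.37, Ndufa5 −0.35, Ndufa7 −0.26 and Ndufa2, a subunit with a thioredoxin fold, −0.07. Ndufa9, a dehydrogenase-like subunit that binds NADPH near the joint of the arms, was at 93.1, 84.9 and 98.9 CPM in the controls and at 119.9, 74.9 and 101 CPM in the knockdown samples. Its knockdown values spanned the control range on both sides (log2 fold change 0.09, SE 0.19). Ndufab1, the mitochondrial acyl carrier protein, which sits in both arms and also serves fatty acid and lipoate synthesis, had a log2 fold change of −0.41.

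The proximal membrane arm had a median of −0.50, with 8 of 9 below 0 (5 with library sizes alone), and one of −0.27 with the GC and length trend removed. Its groups were separated in 6 of 9 (9.55% of all tested genes in the lower direction), and Ndufa13 was called (0.909% of all tested genes called lower). Ndufa3, a small membrane subunit, had a log2 fold change of −0.75 (SE 0.23) and Ndufa8, a cysteine-rich subunit of the intermembrane space, one of −0.70 (SE 0.18), with adjusted p of 0.221 and 0.147 in edgeR. The others were Ndufc1 (−0.50), Ndufa11 (−0.50), which touches complex III in supercomplexes, the X-linked Ndufa1 (−0.40), Ndufs5 (−0.37) and Ndufc2 (−0.21). Ndufa10, a nucleoside kinase relative on the matrix side of the arm, stood at 0.039 with overlapping groups, and at −0.20 with chromosome medians removed. Whether the arms differ from each other was not tested.

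In the distal membrane arm 8 of 10 were below 0 (5 with library sizes alone), with a median of −0.38 (−0.21 without knockdown replicate 2), and Ndufb7 was called (0.909% of all tested genes called lower). Ndufb9, which binds a copy of the acyl carrier protein on the matrix side, was at 108, 240.2 and 162 CPM in the controls and at 100.3, 97.4 and 79.1 CPM in the knockdown samples. The groups did not overlap, but controls 1 and 2 differed from each other more than control 1 did from any knockdown sample. Its log2 fold change was −0.88 (SE 0.26, adjusted p = 0.198 in edgeR's quasi-likelihood test), and −0.55 without control replicate 2. Ndufb5 (−0.61), Ndufb10 (−0.51), Ndufb3 (−0.44) and the X-linked Ndufb11 (−0.31) followed, and Ndufb6 (−0.17) and Ndufb8 (−0.11) were nearer to 0. Ndufb4, a subunit of this arm, was at 28.4, 24.8 and 35.6 CPM in the controls and at 39.5, 30.6 and 26.6 CPM in the knockdown samples (0.12, SE 0.21). Ndufb2 was at 23.9, 23.3 and 25.1 CPM in the controls against 30.2, 23.4 and 24.4 CPM (0.11, SE 0.18). In both, only knockdown replicate 1 was above every control, and without it both were below 0, at −0.046 and −0.0073. Ndufa4, taken by its name but now placed in complex IV, had a log2 fold change of −0.26.

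The members' levels also differed among the knockdown samples. Their summed level was 2649, 3070 and 2661 CPM in the controls (SD 239) and 2630, 1941 and 2213 CPM in the knockdown samples (SD 347). Knockdown replicate 1 was thus close to the controls, and replicates 2 and 3 were below all of them. As a median over the 37 members, the distance of a sample from each gene's own mean (log2 scale) was 0.13, 0.26 and 0.11 in the controls and 0.04, −0.35 and −0.23 in the knockdown samples. Knockdown replicate 2 was the lowest sample for 26 members and replicate 3 for 8, while control replicate 2 was the highest for 18. Against the lowest control, 18 members were lower in knockdown replicate 1, 34 in replicate 2 and 28 in replicate 3, beside 29.6%, 28.4% and 28.8% of all tested genes. Without control replicate 2, 32 members were below 0 with a median of −0.30, and without knockdown replicate 1, 36 were, with a median of −0.47.

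**Figure D3:**
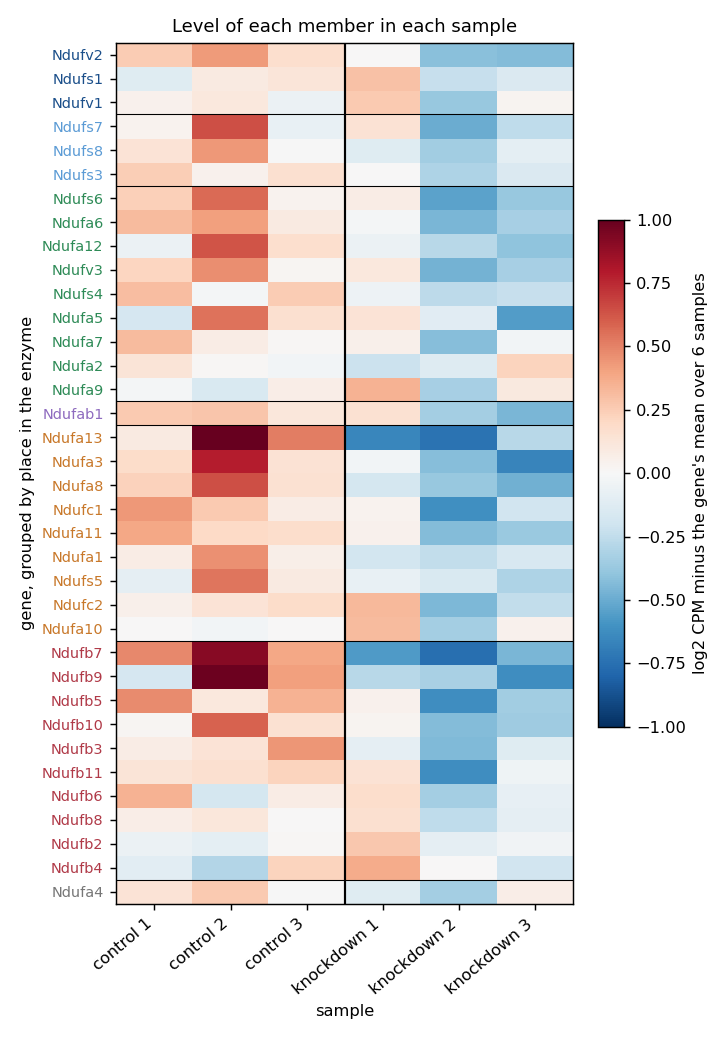
Level of the complex I genes whose values are reported (rows, grouped by place in the enzyme) in each sample (columns), as log2 CPM minus the gene's mean over the 6 samples, with colours that end at −1 and 1. Knockdown replicates 2 and 3 are mostly blue, knockdown replicate 1 is mixed, and control replicate 2 holds the deepest red.

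Adipocyte markers had the same order among the knockdown samples. The 9 tested adipocyte markers summed to 21004, 22349 and 24475 CPM in the controls and to 19765, 10893 and 12764 CPM in the knockdown samples, so that replicate 1 was again the nearest to the controls. The largest part of each sum was Lpl, a gene on chromosome 8. It was at 12275, 11958 and 14512 CPM in the controls and at 10210, 5350 and 5595 CPM in the knockdown samples. All 9 were below 0, with a median of −0.43, from Adipoq (−0.24) to Retn, a hormone gene on chromosome 8 (−1.67, adjusted p = 0.0967 in edgeR), the only one called in edgeR and 1 of 2 called in DESeq2, although 6 of 9 were below 0 with library sizes alone. Retn was at −1.28 (adjusted p = 0.229 in edgeR) with chromosome medians removed. The markers' median was −0.70 without knockdown replicate 1, with 6 called in a fit that called 696 of all tested genes, and −0.27 without replicate 2, with 8 below 0 and 0 called. The 8 tested fibroblast or preadipocyte markers summed to 7356, 6732 and 6327 CPM in the controls and to 3290, 6867 and 6073 CPM in the knockdown samples, with knockdown replicate 1 the lowest. Of them 6 were below 0 (3 with library sizes alone), from Dcn (−0.94) to Pdgfrb (0.12), with 4 below 0 and 2 called without knockdown replicate 1 and 8 below 0 without replicate 2. With all samples, edgeR called 0, with 3 at an unadjusted p under 0.05 (1 called with no filter on low counts), in limma-voom 0 and in DESeq2 2. The preadipocyte marker Cd34 had 0 to 2 counts per sample and was not tested. The part of these markers in the complex I values was not tested. Rbms1 itself had another order, since its lowest sample was knockdown replicate 1.

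**Figure D4:**
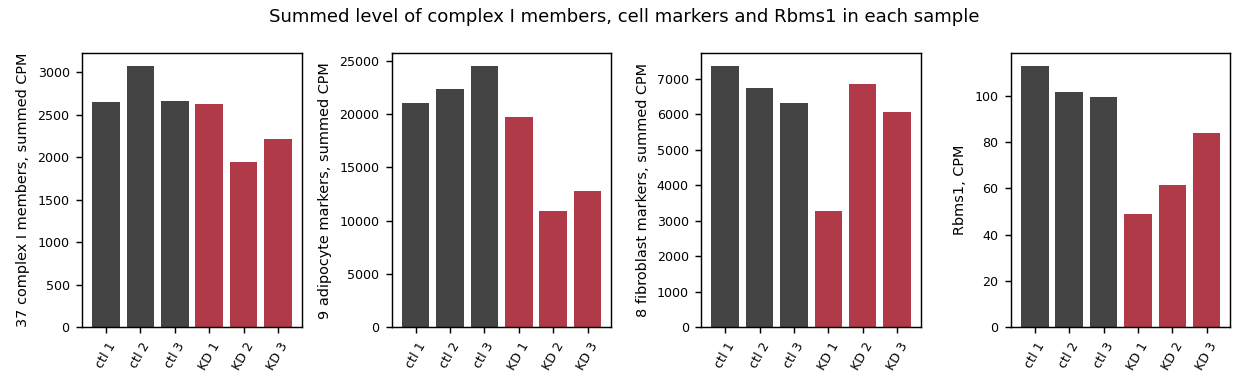
Summed TMM-normalized CPM of the 37 complex I genes, 9 adipocyte markers and 8 fibroblast or preadipocyte markers, and CPM of Rbms1, in each sample (bars, from 0), with ctl for scrambled control and KD for RBMS1 knockdown replicates. The complex I and adipocyte marker bars of KD 1 are close to the controls and those of KD 2 and KD 3 are lower, whereas Rbms1 is lowest in KD 1. Lpl, on chromosome 8, is the largest part of each adipocyte marker bar.

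Most genes that work with the nuclear subunits also had values below 0 under TMM scaling. The 7 core subunits encoded by the mitochondrial genome were all below 0 (6 with library sizes alone), with a median of −0.70 (−0.43 without control replicate 2), from mt-Nd3 (−1.81, SE 1.34, with no counts in 2 samples) to mt-Nd2 (−0.31). In edgeR 0 were called, with 3 at an unadjusted p under 0.05, in limma-voom 0 and in DESeq2 2. They summed to 21714, 26584 and 22222 CPM in the controls and to 13056, 19572 and 15088 CPM in the knockdown samples. Here the lowest sample was knockdown replicate 1, in which the nuclear members were nearest to the controls. Of 18 complex I assembly factors, 14 were below 0, with a median of −0.18. Scaled by library size alone, 3 were below 0, with a median of 0.21 beside 0.37 over all tested genes. Under TMM scaling the median was −0.34 without knockdown replicate 1, −0.12 without replicate 2 and −0.10 without replicate 3. Of these factors 0 were called in edgeR, DESeq2 or limma-voom, with 1 at an unadjusted p under 0.05 in edgeR. Ndufaf2, the factor that Ndufa12 replaces, was singled out after its values were seen, and was at 4.97, 9.43 and 6.54 CPM in the controls against 2.01, 2.22 and 3.30 CPM. Its groups did not overlap (log2 fold change −1.40, SE 0.38, adjusted p = 0.161 in edgeR).

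The nuclear subunits of respiratory complexes II to V were also mostly below 0 under TMM scaling. Of 38 genes 35 were below 0, with a median of −0.34. Scaled by library size alone, 14 were below 0, with a median of 0.052 beside 0.37 over all tested genes. Under TMM scaling, all knockdown samples were below all controls in 16 of the 38, against 9.55% of all tested genes. A lower level with an unadjusted p under 0.05 in edgeR was seen in 13 of the 38, against 6.98%. The median was −0.19 without knockdown replicate 2 and −0.20 with the GC and length trend removed, with 31 below 0 in both. Cox4i1, a complex IV subunit encoded on chromosome 8, was the only one called (0.909% of all tested genes were called lower). It was at 320.4, 418 and 346 CPM in the controls and 234, 189 and 196 CPM in the knockdown samples (log2 fold change −0.81, SE 0.17, adjusted p = 0.0842 in edgeR). Its groups did not overlap. It was at −0.41 (adjusted p = 0.420) with chromosome medians removed and at −0.65 (adjusted p = 0.170) with the GC and length trend removed, both in edgeR. Scaled by library size alone it was at −0.40 (adjusted p = 0.441 in edgeR). It was also not called with the replicate block (adjusted p = 0.214) or edgeR's earlier estimate (adjusted p = 0.107), both in edgeR. With 1 sample left out, Cox4i1 and Retn were each called only without knockdown replicate 1, at adjusted p of 0.0209 and 0.00106 in edgeR, in the fit that called 696 of all tested genes and 5 of the 38 genes of complexes II to V. With any other single sample left out, 0 of these 38 genes were called. Of 9 tested other enzymes that pass electrons to ubiquinone, 8 were below 0 (1 with library sizes alone), with a median of −0.27 (−0.41 without knockdown replicate 1), from Etfdh of fatty acid oxidation (−0.50) to Sdhc of complex II (0.15). Without knockdown replicate 2 the median was −0.17. Sdha, Sdhb, Sdhc and Sdhd belong to this list and also to the 38 genes of complexes II to V. Of these enzymes 0 were called in edgeR, DESeq2 or limma-voom, with 1 at an unadjusted p under 0.05 in edgeR. Of 8 regulators of respiratory genes, 6 were below 0 (2 with library sizes alone), with a median of −0.092, which was −0.17 without control replicate 1, −0.057 without knockdown replicate 2 and −0.043 without knockdown replicate 3. In edgeR 0 were called, with 1 at an unadjusted p under 0.05, in limma-voom 0 and in DESeq2 1. Ppargc1a, a coactivator of mitochondrial biogenesis, was the lowest of these, at 17.3, 22.8 and 13.2 CPM in the controls against 9.34, 9.23 and 6.31 CPM. Its groups did not overlap (log2 fold change −1.09, SE 0.27, adjusted p = 0.140 in edgeR), and the highest was Tfam, a mitochondrial DNA-binding factor, at 0.07.

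**Figure D5:**
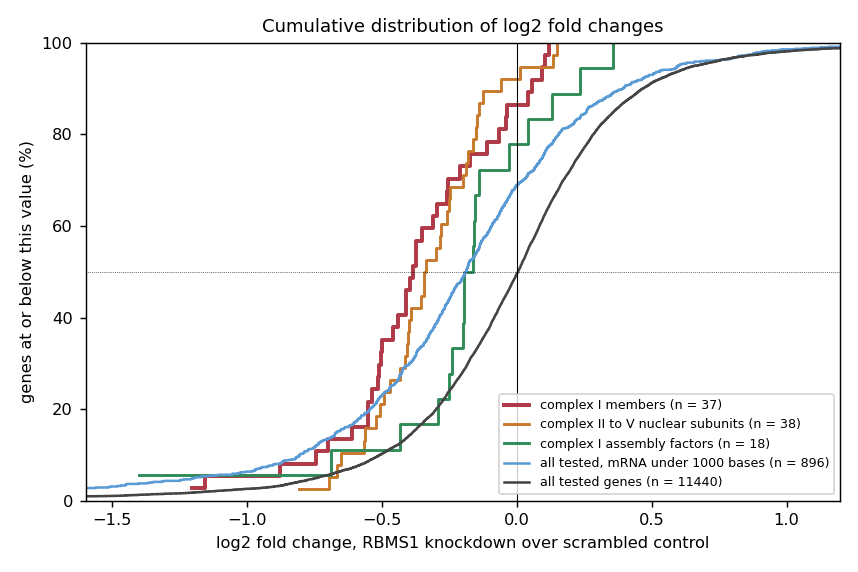
Share of genes (y axis, percent) at or below each log2 fold change, RBMS1 knockdown over scrambled control (x axis, whose ends leave out the most extreme genes), for complex I members, complexes II to V, complex I assembly factors, all tested genes with an mRNA under 1000 bases and all tested genes. The medians are −0.38, −0.34, −0.18, −0.19 and 0.0044 under TMM scaling, and with library sizes alone the first was 0.025 and the last 0.37.

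Short transcripts were a feature that the members shared. The median length of their principal mRNA was 861 bases (419 to 3479), against 2929.5 over all tested genes, and 23 of 37 (62.2%) were under 1000 bases against 7.86%. Short genes in general had lower values, with a log2 fold change of −0.19 at the median of the 896 tested genes under 1000 bases, of which 69.0% were below 0, and of 0.016 for longer genes. Within complex I the 23 shorter members had a median of −0.38 with 21 below 0, and the 14 longer ones −0.39 with 11 below 0. Over the 37 members, the correlation of log2 fold change with log2 mRNA length was weak (r = 0.17, rho = 0.11). That with GC content was −0.26 and that with mean log2 CPM was 0.25 (Pearson's r), and all members share the same 6 libraries. With each sample's trend in GC content and length removed, 29 members were below 0 with a median of −0.24, and Ndufb7 alone was called.

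The members were spread over 15 chromosomes, and 9 of 37 (24.3%) started within 1000 bases of a gene on the opposite strand that runs away from them, against 11.3% of tested genes. Among them Ndufb9 starts 18 bases from Tatdn1, and Ndufa8 52 bases from Morn5. Per kilobase of mRNA, the control levels were highest for Ndufb9 (241 ± 94.4 CPM per kilobase, SD, n = 3), Ndufa4 (190.5 ± 17.8) and Ndufb8 (181 ± 6.79), which did not differ from each other beyond their spread. The lowest were Ndufs4 (17.9 ± 2.11), Ndufc1 (25.8 ± 3.21) and Ndufab1 (26.8 ± 1.69), of which the last pair did not differ beyond their spread.

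For some members the counts may be split with near-identical copies. Pseudogenes with at least 95% identity over 100 bases or more exist for 11 members. They held over 5% of the joint counts in 3, with 1336 counts on Ndufb4 copies beside 1334 on Ndufb4, 589 beside 2247 for Ndufa12 and 346 beside 3249 for Ndufab1, so these 3 values are uncertain. Ndufa13 overlaps Yjefn3 on the same strand, which had 118 counts beside 1980, and Tssk6 on the opposite strand, which had 6. Ndufb7 had neither a copy nor an overlapping gene.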

How the data were processed

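RNA was measured in 6 cultures (3 scrambled control, 3 RBMS1 knockdown). Per the study's methods and the submitters' processing notes, rRNA-depleted stranded libraries were trimmed with Trim Galore 0.6.7, aligned to GRCm38 with STAR 2.7.10a and quantified with Salmon 1.9.0. The deposited values are estimated counts per gene, which the authors did not normalize. The annotation release, the summing of transcripts to genes and the strand setting are not given in the sources used here.

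For the tests, these values were rounded to whole numbers and fitted by edgeR 4.0.16 in R 4.3.3 (filterByExpr, TMM, estimateDisp, glmQLFit with legacy = FALSE, glmQLFTest) on the condition alone. Benjamini-Hochberg adjustment was over all 11440 tested genes, and the call threshold, taken from the study's Results, was an adjusted p of at most 0.1. On simulated counts for this comparison (11440 genes, 200 changed) edgeR recovered 97.0% of 4-fold changes and 59.6% of 2-fold changes, and 9.77% of its calls were false. The simulation drew genes independently, with dispersion from the trend alone. It held no deviating sample and no chromosome-wide or GC and length shift, so these rates need not hold for the real samples. Alternatives were DESeq2 1.42.0, limma-voom (limma 3.58.1), RLE or no scaling factors, library sizes without rRNA-derived genes, other filters, GC and length or chromosome offsets, the replicate number as a block, edgeR's earlier quasi-likelihood estimate (chosen after seeing the data) and each sample left out.

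The members were taken by symbol. Values per sample are given for called members, core subunits, the 3 lowest and 3 highest log2 fold changes and members on chromosome 8, except 1 member that is not reported here by name and is kept in counts, sums and medians. Of the other lists the called genes and, for lists under 12 genes, the lowest and highest are named. The members and gene lists were chosen with earlier results of these data known. Positions, lengths and GC content came from a GENCODE annotation of GRCm38. Lengths are of 1 principal transcript per gene. Pseudogene copies were found with BLAST 2.17.0. The comparison was of 3 samples against 3. Ndufb7 had the fewest counts of the tested members, 782 in all, and how far depth per sample limits such members was not tested.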

Additional observations from a re-analysis of the deposited data

How the results depend on the processing

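Library sizes alone, with no scaling factors, moved the complex I values most. The median of all tested genes then stood at 0.37, 33.3% of calls were lower against 74.3%, 17 of 37 members were below 0, their median was 0.025 and 0 members were called. The log2 fold changes of Ndufs1 (0.35), Ndufv1 (0.35), Ndufs3 (0.065), Ndufs7 (0.026) and Ndufs8 (0.025) changed sign there, and Ndufb7 (−0.78) and Ndufa13 (−0.69) kept it without passing the threshold. In the other fits to all samples, Ndufa2 (0.13), Ndufb8 (0.078) and Ndufv1 (0.022) turned above 0 with the GC and length trend removed. With chromosome medians removed, Ndufa9 (−0.082), Ndufb2 (−0.070) and Ndufa10 (−0.20) turned below 0 and Ndufb5 went from −0.61 to 0.0048. In the other 10 fits that kept all samples, the members' median ran from −0.41 to −0.24 and 29 to 35 were below 0.

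The number of members called was 4 with DESeq2, 1 with limma-voom, 1 with RLE size factors, 1 with the GC and length trend removed, 1 with edgeR's earlier estimate, 0 with chromosome medians removed and 0 with the replicate block. Calls over all tested genes were 140 in the reported fit, 430 with DESeq2, 116 with limma-voom, 132 with RLE size factors, 126 with library sizes alone, 136 with the GC and length trend removed, 122 with edgeR's earlier estimate, 268 with no filter on low counts, 71 with chromosome medians removed and 39 with the replicate block. Same-numbered samples had correlations of −0.144, 0.0785 and −0.0284 in their deviations, and differently numbered samples −0.173 to 0.206. With 3 samples per group this cannot settle whether the replicate numbers pair the samples, which the sources used here do not state. With the replicate block, Ndufb7 had a log2 fold change of −1.19 (adjusted p = 0.173 in edgeR). Ndufa13 then had one of −1.12 (adjusted p = 0.204 in edgeR). With the replicate block 32 members were below 0 with a median of −0.38. The adjusted p of Ndufb7 ran from 0.00184 to 0.247 over all edgeR, DESeq2 and limma-voom fits and that of Ndufa13 from 0.00464 to 0.311.

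Leaving out 1 sample at a time gave 12 to 696 calls over all tested genes, 0 to 9 members called, 30 to 36 members below 0 and a median between −0.47 and −0.30. The log2 fold change then ran from −0.21 to 0.072 for Ndufs1, −0.18 to 0.13 for Ndufv1, −0.063 to 0.27 for Ndufa9, −0.0073 to 0.19 for Ndufb2 and −0.046 to 0.28 for Ndufb4. Over all 18 fits, 16 of 37 members were below 0 in each and 12 in all but 1, and Ndufb4, Ndufa10, Ndufa9 and Ndufb2 were above 0 in at least 15. The cause of these differences between fits was not tested.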
